A study of Homo sapiens with 2 samples.

Results

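The open chromatin regions described here lie at CpG-poor promoters of protein-coding genes in CAMA-1, an adherent breast cancer line of epithelial cells from the mammary gland. Open chromatin was profiled by ATAC-seq, an assay that uses the transposase Tn5 to cut and tag DNA that is not wrapped in nucleosomes. The data comprised 2 biological replicates of 50000 untreated cells each. They form a single condition of a single line grown in DMEM with fetal bovine serum, so no groups of samples were compared and no test was run. A shared region was a merged interval of overlapping peaks to which both replicates contributed. A promoter was called CpG-poor when the 500 bp on either side of the most 5′ transcription start site (TSS) of an autosomal protein-coding gene had a CpG observed/expected ratio below 0.4. This ratio is the number of CG dinucleotides divided by the number that the C and G content of the sequence would give if the bases were in random order. Of 215195 shared regions, 2828 lay within 1 kb of such a TSS, and they belonged to 2247 genes. They were compared with 12430 shared regions within 1 kb of the other autosomal protein-coding TSSs and, for some measures, with 156942 distal regions more than 3 kb from any protein-coding TSS.

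Most mammalian promoters sit in CpG islands, stretches that have kept their CG dinucleotides, and these promoters tend to be open in many cell types, whether or not the gene is highly transcribed. CpG-poor promoters have lost most of these dinucleotides, more often carry a TATA box, and are typical of genes used in few tissues, such as secreted proteins, keratins and receptors. Their opening usually depends on transcription factors particular to the cell type, which makes them informative about cell identity.

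The peak lists held 245736 peaks for replicate 1 and 259745 for replicate 2, and every peak ended within the length of its hg38 sequence. The total number of reads per library was not in the peak lists, but the fold enrichments were whole steps of 0.230 in replicate 1 and 0.221 in replicate 2, so that the number of reads stacked at the highest point of each peak could be recovered (100% of values were whole to within 0.05 reads). The lowest peak had 11 stacked reads in either replicate. Markers of the labelled cell type and of others were checked at the most 5′ TSS. Of 10 luminal and epithelial markers, 9 had a shared region within 1 kb of it. ESR1, the estrogen receptor gene, had no peak within 1 kb of its most 5′ TSS in either replicate. Its other TSSs were not part of this check, so whether ESR1 is open elsewhere is not shown. The weakest of the 9 was GATA3, with fold enrichments of 5.29 and 4.86. KRT8 and KRT18, both among the 9, had the same fold enrichments (105 and 99.7), as a single region counted for both would give. Of 3 basal markers, 1 had a shared region (KRT5, with fold enrichments of 10.8 and 9.51), and of 7 blood markers 1 had one (CD14, with 47.9 and 52.6).

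The promoter sequences show what CpG-poor means at the level of bases. The stretch from 100 bases before to 20 bases after the TSS is printed 5′ to 3′ on the strand of the gene for the 4 genes with the best mean rank of fold enrichment, with each CG in capitals (hg38). These are VTCN1, which encodes the immune checkpoint ligand B7-H4 (chr1:117210940-117211060 on the minus strand), the splicing factor gene SF3B2 (chr11:66050629-66050749 on the plus strand), the epithelial transcription factor gene ELF3 (chr1:202007845-202007965 on the plus strand) and TOMM40L, which encodes a mitochondrial import channel protein (chr1:161225839-161225959 on the plus strand). The promoter of the proteasome subunit gene PSMA5 (chr1:109426428-109426548 on the minus strand) follows them for contrast. It was the best-ranked promoter outside the CpG-poor class and was picked after its values were seen.
VTCN1: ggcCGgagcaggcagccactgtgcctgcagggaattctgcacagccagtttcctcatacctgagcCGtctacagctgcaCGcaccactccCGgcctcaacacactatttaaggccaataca
SF3B2: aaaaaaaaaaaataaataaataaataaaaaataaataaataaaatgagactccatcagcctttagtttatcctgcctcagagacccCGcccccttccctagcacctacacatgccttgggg
ELF3: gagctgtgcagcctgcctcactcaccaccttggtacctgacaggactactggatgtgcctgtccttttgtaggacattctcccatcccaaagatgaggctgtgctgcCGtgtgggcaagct
TOMM40L: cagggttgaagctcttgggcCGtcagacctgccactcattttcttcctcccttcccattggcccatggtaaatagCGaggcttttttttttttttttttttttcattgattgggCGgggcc
PSMA5: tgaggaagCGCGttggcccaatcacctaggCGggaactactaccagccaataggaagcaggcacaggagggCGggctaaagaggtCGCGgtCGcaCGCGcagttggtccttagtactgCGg
The PSMA5 stretch holds 10 CG dinucleotides, whereas those of VTCN1, SF3B2, ELF3 and TOMM40L hold 4, 1, 1 and 3. Over the full window around the TSS the CpG observed/expected ratio was 0.742 for PSMA5, 0.163 for VTCN1, 0.345 for SF3B2, 0.167 for ELF3 and 0.310 for TOMM40L. The region that gave SF3B2 its rank lay 949 bp from the TSS, outside the printed stretch. It had a ratio of its own of 0.768.

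A far smaller share of CpG-poor promoters than of the others was open. Of 19110 autosomal protein-coding promoters, 5534 were CpG-poor, and 2247 of these (40.6%, 95% Wilson interval 39.3 to 41.9%) had a shared region within 1 kb. The share was 86.2% (85.6 to 86.8%) for the 13576 other promoters and 73% for all promoters. The Wilson intervals cover counting error only, since promoters are not replicates. In single replicates, 42.4% and 43.4% of CpG-poor promoters had a peak (42.9% ± 0.754, SD, n = 2), against 86.6% and 86.8% of the others, so the gap was far wider than the spread between replicates. Of the 3287 CpG-poor promoters without a shared region, 3016 had no peak in either replicate, 260 had a peak in a single replicate and 11 had peaks in both that did not overlap. The peaks found in a single replicate were weak, with median fold enrichments of 4.14 in replicate 1 and 4.20 in replicate 2 and maxima of 8.97 and 7.52.

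The share of open promoters was higher at each step of CpG content within the class itself. It was 27.4% at a ratio below 0.1, 34.3% from 0.1 to 0.2, 44.01% from 0.2 to 0.3 and 50.8% from 0.3 to 0.4, and the Wilson intervals of these 4 bins did not overlap. Just above the limit, from 0.4 to 0.5, it was 58.4%, so the limit of 0.4 divides a gradual trend and marks no step. The share reached 84.3% from 0.6 to 0.7 and was highest, 93.4%, from 0.9 to 1.0. The strength of the strongest region at each open gene followed the same order up to the bin from 0.6 to 0.7. In replicate 1 the median fold enrichments were 10.1, 16.8, 18.4 and 30.4 over the 4 CpG-poor bins and 53.8 at 0.6 to 0.7. Replicate 2 gave 10.6, 16.4, 18.6, 31.0 and 55.6. From 0.9 to 1.0, where the share was highest, the medians were no higher, at 52.2 and 54.4.

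**Figure D1:**
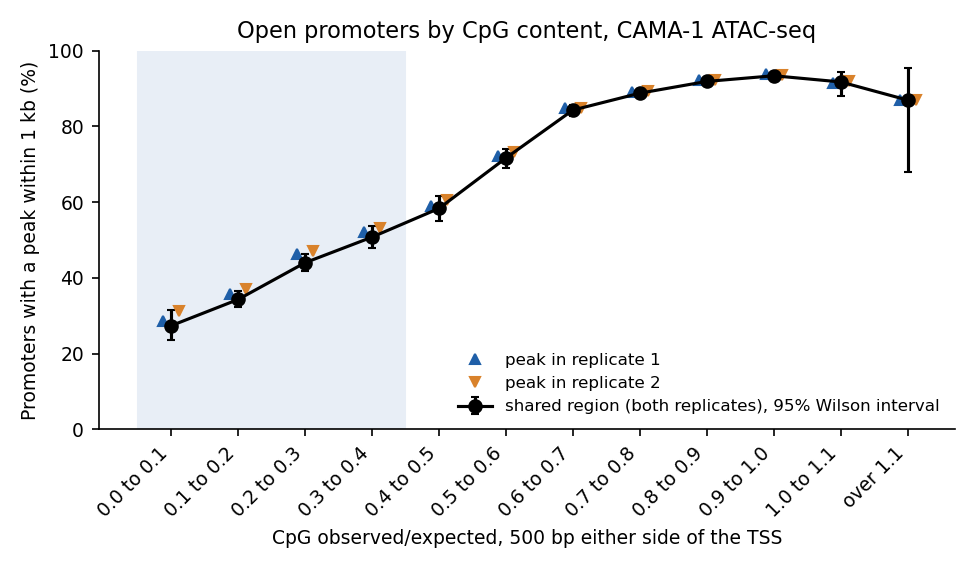
Share of autosomal protein-coding promoters with a peak within 1 kb (y axis, percent) by CpG observed/expected of the 500 bp on either side of the TSS (x axis, bins of 0.1, with the CpG-poor class shaded). Black points are shared regions with 95% Wilson intervals and triangles are single replicates. The share climbs from 27.4% in the lowest bin to 93.4% at 0.9 to 1.0, and the replicates lie close together in every bin.

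GC content moved with opening as well. Open CpG-poor promoters had a median GC content of 52.4%, and those without a shared region 44.6%. Within the CpG-poor class, 17.8% of promoters with a GC content under 40% were open, 39.4% at 45 to 50%, 61.2% at 55 to 60% and 71.7% at 60% or more. At equal GC content the CpG ratio separated the lower and upper parts of the class only weakly. From 50 to 55% GC, 46.6% of promoters with a ratio below 0.2 and 49.8% of those from 0.2 to 0.4 were open, and from 55 to 60% GC the values were 62.4% and 60.6%, with overlapping intervals in both bands. Under 40% GC the values were 14.9% (12.5 to 17.7%) and 22.7% (19.0 to 26.9%), which did not overlap. Promoters with a ratio of 0.4 or more were open more often in every band, for example 75.04% against 39.4% at 45 to 50% GC and 89.1% against 71.7% at 60% or more. The part of base composition in these shares was not tested.

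**Figure D2:**
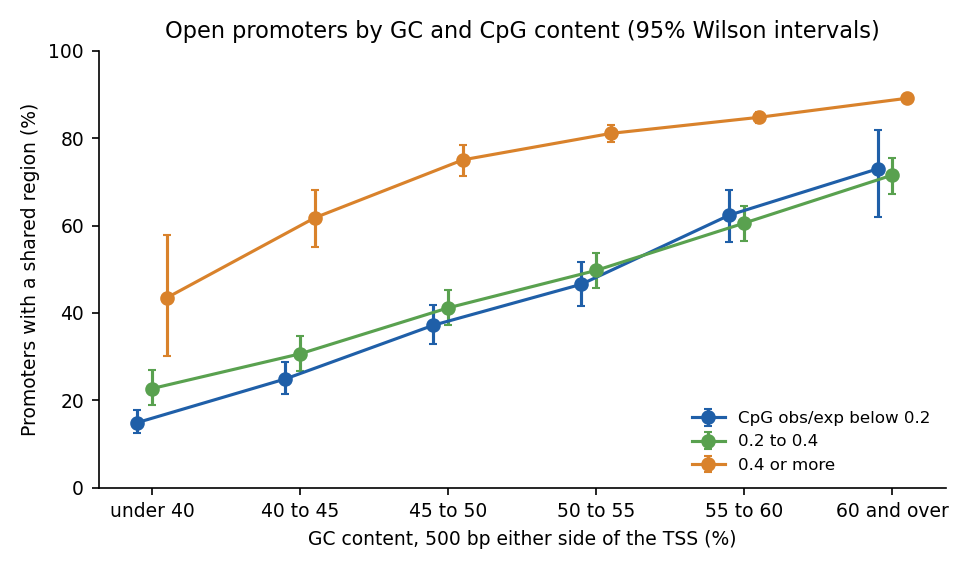
Share of promoters with a shared region (y axis, percent) by GC content of the 500 bp on either side of the TSS (x axis), for promoters with a CpG ratio below 0.2 (blue), from 0.2 to 0.4 (green) and of 0.4 or more (orange), with 95% Wilson intervals. The 2 CpG-poor curves run together from 45% GC upward, at 37.2 and 41.2% in the band from 45 to 50%, and lie below the orange curve throughout.

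The annotation around the TSS also set the CpG-poor promoters apart from each other. Where an annotated TSS of any gene type with a ratio of 0.4 or more lay within 2 kb, 479 of 664 promoters were open (72.1%, 68.6 to 75.4%). Where none did, 1768 of 4870 were open (36.3%, 35.0 to 37.7%). Starts of other transcripts of the same gene were included. Promoters whose most 5′ TSS lay within 100 bp of the start of the canonical transcript were open in 35.7% of cases, against 55.6% with the canonical start farther away but within 1 kb and 46.5% with it more than 1 kb away. A TATA box, searched as TATAAA with its first base 40 to 20 bases before the TSS on the strand of the gene, was present in 6.70% of CpG-poor promoters, in 1.57% of the others and in 3.06% of all promoters. Among CpG-poor promoters it was found in a smaller share of the open ones (5.30%, 4.44 to 6.30%) than of those without a shared region (7.67%, 6.81 to 8.63%). Accordingly, 32.1% (27.5 to 37.0%) of the 371 CpG-poor promoters with a TATA box were open, against 41.2% (39.9 to 42.6%) of those without one.

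The 3 best-ranked CpG-poor promoters with a TATA box are shown in the same way, with the TATA box in capitals. They belong to MUC1, which encodes a mucin of the luminal surface (chr1:155192896-155193016 on the minus strand), RNF223, which encodes a RING finger protein (chr1:1074286-1074406 on the minus strand), and TM4SF4, which encodes a tetraspan membrane protein (chr3:149474597-149474717 on the plus strand).
MUC1: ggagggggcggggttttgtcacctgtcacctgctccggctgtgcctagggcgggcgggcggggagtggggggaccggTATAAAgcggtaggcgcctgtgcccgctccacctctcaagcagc
RNF223: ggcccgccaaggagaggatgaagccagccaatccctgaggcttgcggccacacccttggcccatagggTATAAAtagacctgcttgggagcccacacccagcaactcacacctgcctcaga
TM4SF4: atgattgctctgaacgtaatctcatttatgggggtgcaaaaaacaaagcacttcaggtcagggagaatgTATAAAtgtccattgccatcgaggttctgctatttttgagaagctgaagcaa
The first base of the TATA box lay at position -23 in MUC1, -32 in RNF223 and -31 in TM4SF4, counted from the TSS. Fold enrichments were 217 and 203 at MUC1, 135 and 139.8 at RNF223, and 105 and 104 at TM4SF4. The regions of MUC1 and RNF223 covered the TSS, whereas the region of TM4SF4, 652 bp wide, lay 553 bp from it.

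Open CpG-poor promoter regions were weaker and narrower than other promoter regions. Their median fold enrichment, taken at the strongest peak of each replicate in a region, was 13.6 in replicate 1 and 13.8 in replicate 2, which corresponds to 58 and 62 stacked reads. Other promoter regions had medians of 41.0 and 42.5 (177 and 191 stacked reads), and distal regions 9.20 and 9.51. The ratio of CpG-poor to other promoter regions was 0.331 and 0.326 (0.328 ± 0.00420, SD, n = 2), and the ratio to distal regions 1.48 and 1.45. The class nevertheless spanned a wide range, from 2.99 to 239.5 in replicate 1, where other promoter regions reached 346 and distal regions 402. Of its 2828 regions, 654 (23.1%) exceeded the median of the other promoter regions in both replicates. The median width was 501.5 bp, against 1058 bp at other promoters and 342 bp at distal regions, and 23.02% of CpG-poor promoter regions were wider than 1 kb, against 53.5%.

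Strength and width went together, and the gap in strength was smaller among regions of like width. In regions up to 300 bp wide the ratio of medians was 0.960 and 1.00, and from there to 600 bp it was 0.957 and 0.940. It was 0.761 and 0.743 between 600 bp and 1 kb, and 0.897 and 0.868 between 1 and 2 kb. Above 2 kb the 217 CpG-poor regions were the stronger, with medians of 84.2 and 86.2 against 74.8 and 77.4. The class also held a larger share of narrow regions, with 23.4% at most 300 bp wide, against 7.81% of other promoter regions. A peak caller draws a wider interval around a stronger signal, so width and strength are not independent measures.

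**Figure D3:**
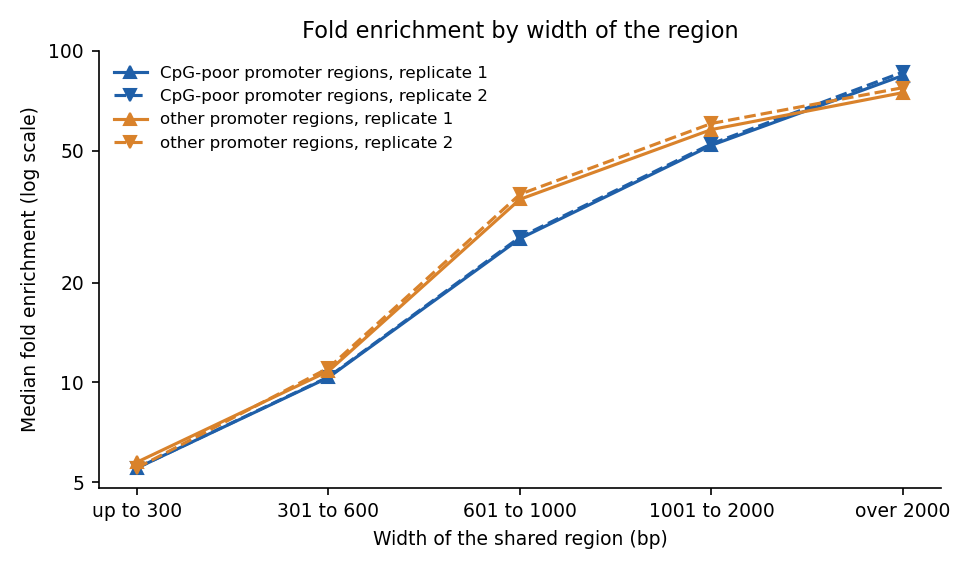
Median fold enrichment (y axis, log scale) of shared regions by width of the region (x axis, bp), for CpG-poor (blue) and other (orange) promoter regions in replicate 1 (solid) and replicate 2 (dashed). The curves nearly coincide up to 600 bp, are farthest apart between 600 and 1000 bp (27.2 against 35.7 in replicate 1) and cross above 2000 bp.

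A smaller share of CpG-poor promoter regions covered the TSS. Of 2828, 1251 (44.2%) spanned the TSS, against 72.8% of other promoter regions. Those that covered it had median fold enrichments of 21.6 and 21.7, whereas those beside it had 9.89 and 9.95. At other promoters the values were 54.1 and 56.2 over the TSS and 9.66 and 9.73 beside it, so regions beside the TSS were of like strength at CpG-poor and other promoters and the gap was among regions over the TSS. Among regions over 300 and up to 600 bp wide, regions over the TSS had a ratio of 0.696 and 0.703, and between 600 bp and 1 kb of 0.706 and 0.657. Over the TSS the ratio was 0.963 in both replicates up to 300 bp, 0.856 and 0.824 between 1 and 2 kb, and 1.12 and 1.13 above 2 kb. Counted over all CpG-poor promoters, open or not, 23.2% ± 0.434 (SD, n = 2) had a peak over the TSS itself, against 77.6% ± 0.156 of the others. At 2 kb upstream the shares were 7.91% and 10.6%, and at 2 kb downstream 11.3% and 14.8%. A total of 587 genes (26.1%) had more than a single CpG-poor promoter region within 1 kb.

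**Figure D4:**
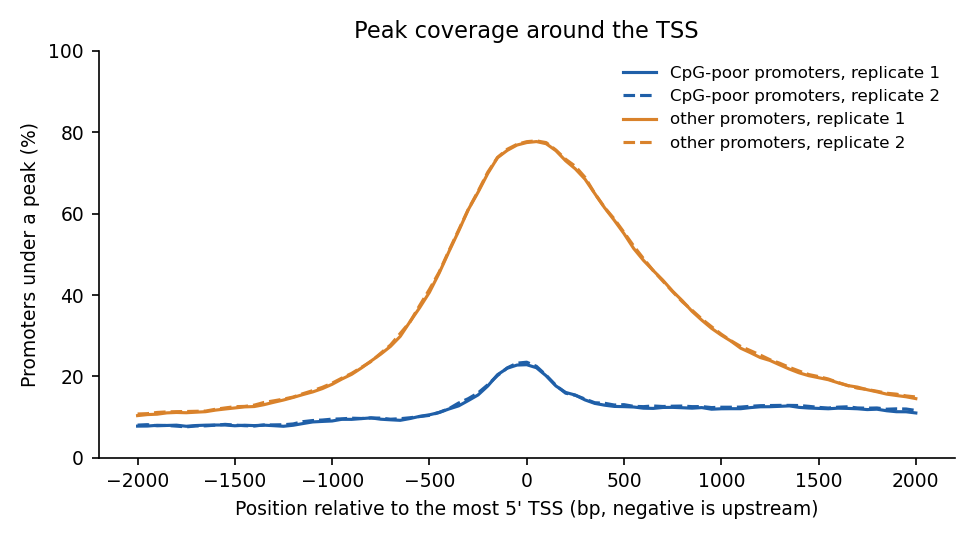
Share of promoters under a peak (y axis, percent) by position relative to the most 5′ TSS (x axis, bp, negative values upstream), for CpG-poor (blue) and other (orange) promoters in replicate 1 (solid) and replicate 2 (dashed). The CpG-poor curve is low and narrow, with 23.2% at the TSS and 12.8% at 500 bp downstream, whereas the other promoters reach 77.6% at the TSS and 55.2% at 500 bp downstream.

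The best mean rank over both replicates belonged to VTCN1, with fold enrichments of 236 and 244 (240.2 ± 5.85, SD, n = 2) over 5470 bp (chr1:117206791-117212260), although TOMM40L was higher in replicate 1 and SF3B2 in replicate 2. Where peaks had to overlap by 50% both ways, the mean of VTCN1 was 143, so its place rests on the overlap rule. The highest point held 1025 stacked reads in replicate 1 (95% Poisson interval 963 to 1089.7) and 1104 in replicate 2 (1039.8 to 1171). ELF3 had 226 and 232 in a region 12857 bp wide that ran over the whole gene (chr1:202007245-202020101). Its strongest peak in replicate 2 lay more than 1 kb from the TSS, and the strongest one nearer than that had a fold enrichment of 190.4. TOMM40L had 239.5 and 219. S100A16 and S100A14, neighbouring genes for calcium-binding proteins, shared a region of 10770 bp with 213 and 232. The regions of all 5 genes covered the TSS.

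Other high-ranking genes had very different settings. KCNN3, which encodes a calcium-activated potassium channel, had 222.5 and 212 in a region of only 866 bp over the TSS, narrower than the median region at other promoters. C2CD4D had 216 and 214 in a region with a CpG ratio of its own of 0.438, and the region of MUC1 had a ratio of 0.425. SF3B2 ranked next after VTCN1 with 218 and 249, but its region lay 949 bp from the most 5′ TSS and had a CpG ratio of its own of 0.768. Within 500 bp of that TSS the strongest region had a mean fold enrichment of 25.5, so the rank of SF3B2 rests on the distance of 1 kb. FBXO24, which encodes a subunit of a ubiquitin ligase, had 211 and 218 in a region 396 bp away that had a CpG ratio of 0.543. Of all 2828 regions, 2361 (83.5%) were CpG-poor in their own sequence, 226 (7.99%) had a ratio of 0.6 or more, and 138 (4.88%) also lay within 1 kb of a promoter that was not CpG-poor.

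Chromosome 1 held 31 of the 100 best-ranked genes and 325 of all 2247. The median fold enrichment of other promoter regions on chromosome 1 was 46.5 and 46.9, above the medians of 41.0 and 42.5 over all autosomes. On chromosomes 5 (55.5 and 57.3) and 7 (47.5 and 49.4) it was higher than on chromosome 1 in both replicates. The CpG-poor promoter regions of chromosome 1 had medians of 14.4 and 14.6, against 13.6 and 13.8 over the whole class. DNA copy number was not analysed here, and its part in these ranks was not tested. Within each of the 22 autosomes CpG-poor promoter regions had a lower median than other promoter regions in both replicates, with ratios from 0.168 to 0.471.

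Gene families differed widely in how many of their CpG-poor promoters were open, and each count is set against the 40.6% of all CpG-poor promoters. Genes of the epithelial junction and surface were open at 14 of 15 promoters. They include RAB25, a GTPase of epithelial vesicle traffic, with 146 and 144 in a region over its TSS. EPCAM, the epithelial adhesion molecule, had 98.2 and 90.0, at a most 5′ TSS 24153 bp from the start of its canonical transcript. PRSS8, a membrane-anchored protease, had 75.5 and 92.9. The tight junction gene CLDN8 had 72.7 and 85.8. The exception was ELF5, a transcription factor of mammary luminal progenitors and alveolar cells, which had no peak in either replicate. With canonical TSSs, which change the set of CpG-poor promoters, 10 genes of this list were open.

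Luminal and breast secretory genes were open at 18 of 26 promoters. The luminal keratin gene KRT8 had 105 and 99.7, KRT7 had 100.8 and 104, and AZGP1, a secreted glycoprotein gene, had 103 and 100.4. KRT18, whose promoter was not CpG-poor (ratio 0.713), had the same values as KRT8, as a single region counted for both would give. The region of KRT8 was 10225 bp wide, so its values need not belong to the CpG-poor promoter of KRT8. The most 5′ TSS of KRT8 lay 44878 bp from the start of its canonical transcript. SPDEF, a transcription factor of secretory epithelia, had 95.5 and 93.1. SCGB1D2, which encodes a secretoglobin, had 78.2 and 88.0 in a region of 536 bp over the TSS. The 8 without a shared region had no peak in either replicate. They were the milk protein genes CSN1S1, CSN2, CSN3 and LALBA, the lactoferrin gene LTF, and AGR2, MUCL1 and PIP.

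S100 genes were open at 13 of 15 promoters. Besides S100A16 and S100A14, S100A11 had 187 and 178, S100A1 had 159 and 178, and S100A8, whose promoter carries a TATA box, had 58.0 and 64.6. S100A7 and S100Z had no peak. Keratins of basal and stratified epithelia were open at 12 of 23. KRT80 had 127 and 133 over its own TSS and KRT16 had 81.5 and 82.3, whereas KRT86 shared its value, 100.8 and 104, with KRT7, because a single region of 24868 bp took in both. KRT14, KRT6A and KRT1 were among the 11 without a shared region.

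Interferon-induced genes were open at 13 of 25 promoters, led by IFI6 with 106.3 and 106.1 and the antiviral membrane protein gene BST2 with 72.2 and 72.5. GBP1, IFIT2, IFIT3 and MX2 had no peak. Cytochrome P450 genes were open at 20 of 38, with 104 and 98.6 at CYP4F3 and 65.1 and 60.4 at CYP1A1, the TATA-containing target of the aryl hydrocarbon receptor. CYP19A1, the aromatase gene, and CYP3A4, a drug-metabolizing enzyme of the liver, had none. Solute carrier genes were open at 59 of 126, of which SLC35A3, a nucleotide sugar transporter gene, had 159 and 175. Tetraspanin and transmembrane 4 superfamily genes were open at 7 of 11, with 111 and 105 at TM4SF1.

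Genes typical of other tissues made up a further group of lists. Blood lineage genes were open at 13 of 45 (28.9%, 17.7 to 43.4%), the strongest being CD68 (53.2 and 59.3), a lysosomal protein gene of macrophages, CD22 (52.7 and 50.0) and CD14 (47.9 and 52.6). Liver secretory genes were open at 17 of 42 (40.5%), against 40.6% of all CpG-poor promoters. Within 500 bp 9 of them were open and within 100 bp 6, when the shares of all CpG-poor promoters were 33.0% and 25.6%. The coagulation factor gene F7 had 91.3 and 91.8 in a region over its TSS. At APOA1 (82.4 and 78.5) and CPS1 (81.9 and 85.4) the regions lay 879 and 710 bp from the TSS and had CpG ratios of 0.618 and 0.762. ALB, FGB and HP had no peak.

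Chemokine genes were open at 13 of 36, with 62.1 and 63.0 at CXCL8, the neutrophil attractant, and no peak at CXCL10 or CCL5. Claudin genes were open at 5 of 14 and kallikrein genes at 5 of 13. The prostate genes KLK2 and KLK3 had no peak. Serpin genes were open at 6 of 25, at 19.8 and 15.5 or lower. Genes for UDP-glucuronosyltransferases and sulfotransferases were open at 6 of 31, with 80.8 and 83.6 at SULT2B1. The families of sensory receptors, hair proteins and beta-defensins had the lowest shares of the 19 lists. Olfactory receptor genes were open at 27 of 402 (6.72%, 4.66 to 9.60%), keratin-associated protein genes of hair at 15 of 88, beta-defensin genes at 6 of 40 and taste receptor genes at 3 of 26. The strongest olfactory receptor region, 667 bp from the TSS of OR13J1, had 61.2 and 57.7, and the next, over the TSS of OR6J1, had 32.9 and 32.3.

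**Figure D5:**
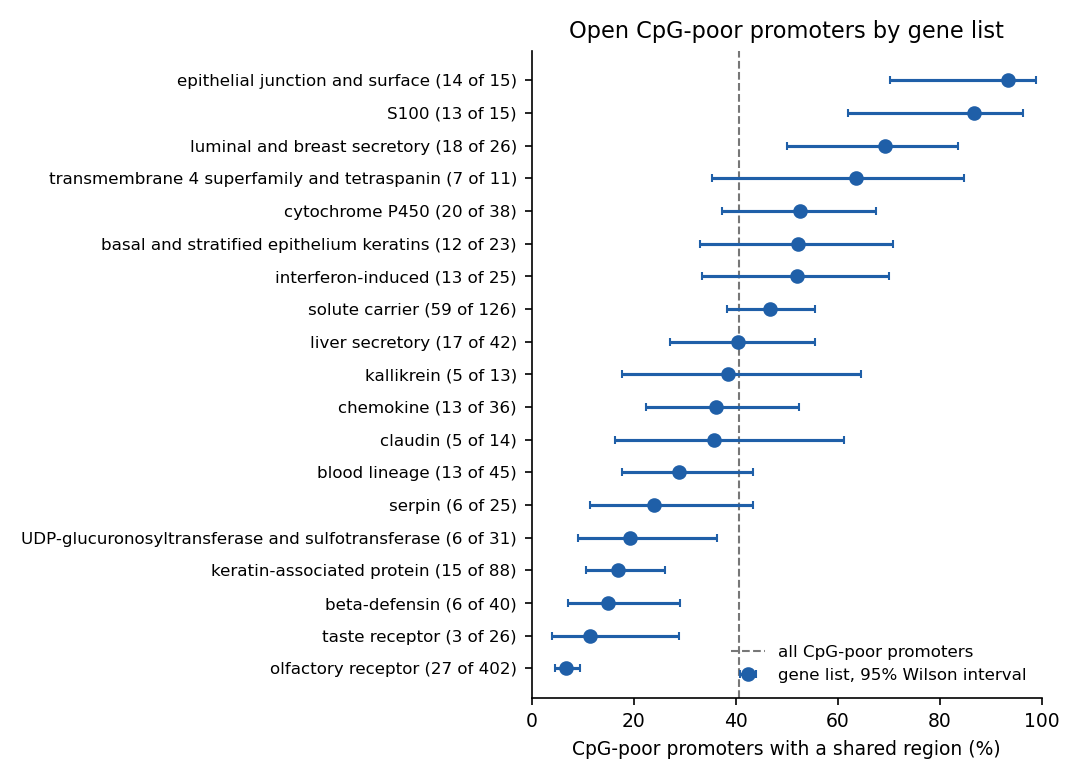
Share of CpG-poor promoters with a shared region (x axis, percent) for each gene list (y axis, with the number open of the number CpG-poor), with 95% Wilson intervals. The dashed line marks the 40.6% of all CpG-poor promoters. Epithelial junction and surface genes (14 of 15) lie at the top and olfactory receptor genes (27 of 402) at the bottom.

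Agreement between replicates was measured over regions with a peak in both, so the 260 CpG-poor promoters with a peak in a single replicate do not enter. The SD of the log2 difference in fold enrichment between replicates was 0.27 for CpG-poor promoter regions, 0.21 for other promoter regions and 0.30 for distal regions, and 99.9% of CpG-poor promoter regions lay within a factor of 2 between replicates. The largest differences were at weak regions. IGFL1, an insulin growth factor-like gene, had 8.28 and 3.10, DDX60L, related to antiviral helicases, had 4.14 and 9.51, and the endothelial nitric oxide synthase gene NOS3 had 8.51 and 4.42. The lowest-ranked genes were KRTAP10-12 and RD3 (both 3.45 and 3.76), FGFBP1 (3.68 and 3.54), ENSG00000269095 (3.68 and 3.32) and RALB (3.45 and 2.87), close to the minimum of 2.99 and 2.87 over the class.

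Open promoters nearest to the CpG limit spanned weak and strong regions. Just below 0.4, DDX5, an RNA helicase gene, had 73.6 and 72.3, the collagen gene COL16A1 had 46.5 and 40.7, and S100PBP had 33.8 and 37.8. In that order, their regions lay 382, 142 and 71 bp from the TSS and had CpG ratios of their own of 0.873, 0.308 and 0.644. Just above 0.4, DENND1C had 5.98 and 6.85, the calcium channel gene CACNB3 had 66.5 and 70.1, and DNASE1L2 had 46.7 and 38.9.

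Short motifs were counted within 50 bp of the midpoint of each region on both strands, as a description of sequence and not of binding. The AP-1 motif TGANTCA was found in 5.16% of CpG-poor promoter regions (4.41 to 6.04%), in 1.496% of other promoter regions and in 6.51% of distal regions. In windows of equal length centred 250 bp from the midpoint of the CpG-poor promoter regions, called flanks here, it was found in 2.93%. The median region was 501.5 bp wide, so many of these windows lay partly or wholly inside the region. The AP-2 motif GCCNNNGGC showed the opposite order, with 7.50% of CpG-poor promoter regions, 13.7% of other promoter regions, 5.81% of distal regions and 5.39% of flanks. The CTCF motif CCACNAGNNGGC was found in 0.955%, 0.402%, 1.63% and 0.106% of the same sets. The class thus lay between other promoters and distal regions for all 3 motifs. It also lay between them in median GC content of the regions, which was 61.8% at other promoters, 55.1% in the class and 47.8% at distal regions. The part of GC content in the motif shares was not tested.

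Further motifs were counted in the same way. The GATA motif AGATAA was found in 3.54% of CpG-poor, 1.36% of other promoter and 5.26% of distal regions, but in 4.33% of flanks. The FOX motif TGTTTAC was found in 1.84%, 0.909%, 3.70% and 1.22%, the TEAD motif GGAATG in 7.00%, 3.58%, 7.76% and 6.17%, and the nuclear receptor motif AGGTCA in 7.18%, 3.89%, 8.39% and 6.75%. For TEAD the interval of the CpG-poor regions (6.12 to 8.00%) took in the distal share, and those CpG-poor in their own sequence had 7.79%. The ETS motif GGAAGT was at like levels throughout (7.81%, 7.88%, 7.08% and 6.38%). The estrogen response element GGTCANNNTGACC was found at none of the 2828 midpoints, which allows a share of up to 0.106% (3 counts of the total; the upper Wilson limit is 0.136%), and in 0.0350% of distal regions. The letters of AGGTCA overlap those of the estrogen response element, and a window could be counted for several motifs.

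Ranked by strength and cut into 4 sets of 707 regions, the class ran from narrow regions beside the TSS to wide ones over it. Median fold enrichments in replicate 1 were 4.83, 8.74, 23.5 and 69.5, the share that covered the TSS was 29.3%, 38.8%, 48.2% and 60.7%, and the median width was 275, 377, 587 and 1279 bp. The CpG ratio of the regions themselves had a median of 0.211 in the weakest set and 0.279 in the strongest. AP-1 motifs were found in 5.66% of the weakest and 3.68% of the strongest set, and AP-2 motifs in 7.07% and 10.5%, with overlapping intervals in both cases.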

How the data were processed

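ATAC-seq peak lists of 2 biological replicates of CAMA-1 were used, each made from 50000 cells. Per the submitters' processing notes, the authors trimmed reads with Trim Galore 0.6.5, aligned them to hg38 with Bowtie2 2.3.5.1 and called peaks in each replicate with MACS2 2.2.6. The MACS2 settings and the treatment of duplicate and multiply mapped reads were not given in the sources used here. The authors deposited the position of each peak with a score, a ratio (fold enrichment over background), the −log10 of the p-value and the −log10 of the q-value. The deposited lists hold no summits and no read counts, so the depth of the libraries is unknown here and no count model was run. Fold enrichment was taken as (height + 1) / (background + 1), which gave backgrounds of 3.35 and 3.52 stacked reads and the height of each peak. Intervals cover counting error only.

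Peaks that overlapped by at least 1 bp were merged. TSSs, canonical transcripts and gene names came from GENCODE release 44, of which 19110 autosomal protein-coding genes were used, and sequences came from hg38. The fold enrichment of a region was that of its strongest peak in each replicate, and a gene took its strongest region. The genes named are those with the 10 best and 5 lowest mean ranks, up to 6 of the best per gene list, the 3 nearest to the CpG limit on either side, the 3 that differed most between replicates and the best-ranked with a TATA box. Genes without a shared region were picked as examples after their values were seen, except where all of a list are given. The members and lists were chosen with earlier results of these data known. Alternatives covered the q-value, the overlap, the CpG limit and window, the distance to the TSS, the TSS used, the measure of strength, the motif window and each replicate left out, and a further set was added after the data were seen. The functions were tested on simulated data. The analyses used Python 3.11.15, numpy 2.4.6, pandas 2.3.3, scipy 1.17.1, pysam 0.24.0 and matplotlib 3.10.9.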

Additional observations from a re-analysis of the deposited data

How the results depend on the processing

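For the number of regions, the shares, the ratios, the SD and the motifs, 72 alternative values moved by more than the spread between replicates (for counts, by more than a factor of 1.5) and 23 did not. For gene lists and single genes, 17 moved and 235 did not. With no groups of samples there was no test whose call could be lost. The share of open CpG-poor promoters, 40.6%, was 34.8% with peaks limited to a −log10 q of 10 or more, 39.0% where peaks had to overlap by 50% both ways, 37.9% below a CpG ratio of 0.3, 42.9% below 0.5, 41.9% with a window of 250 bases either side, 33.0% within 500 bp of the TSS, 25.6% within 100 bp, 37.9% at the canonical TSS, 36.3% without promoters that have a TSS of 0.4 or more within 2 kb, and 42.4 to 43.4% with either replicate alone. Under the same settings that of other promoters was 79.6 to 88.0%. The number of regions, 2828, was 1380 within 100 bp. In the same order, the share that covered the TSS, 44.2%, was 48.3%, 44.4%, 44.97%, 44.9%, 44.6%, 63.6%, 90.7%, 47.9% and 46.6%, and 39.6% with either replicate alone. That of other promoter regions, 72.8%, was 88.3% within 500 bp and 97.9% within 100 bp, so the gap was smallest within 100 bp.

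The ratio of median fold enrichment to other promoter regions, 0.328, was in that order 0.456, 0.343, 0.309, 0.361, 0.355, 0.312, 0.367, 0.286 and 0.283, and 0.276 to 0.296 with either replicate alone. It was 0.209 with −log10 q as the measure, 0.333 with the mean over the peaks of a region, 0.316 as the median over autosomes and 0.314 against promoters of 0.6 or more. Of the alternatives added after the data were seen, it was 0.276 for members CpG-poor in their own sequence, 0.343 with the strongest peak within 1 kb of the TSS, and 0.958 for regions 300 to 600 bp wide. This value includes regions of exactly 300 bp, which the bands of the report place in the band below, and above 2 kb the ratio was over 1 (1.13 and 1.11). The ratio of median widths, 0.474, was 0.557 at the stricter q, 0.457 below 0.3, 0.489 below 0.5, 0.490 with the shorter window, 0.517 within 100 bp, 0.444 at the canonical TSS, 0.426 without neighbouring TSSs and 0.430 to 0.431 with either replicate alone. The between-replicate SD of 0.27 (log2) was 0.47 with −log10 q. The share with a TATA box, 5.30%, was 7.83% with TATAA, 8.63% at the canonical TSS and 5.38 to 5.49% with a replicate left out.

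With 100 bases either side, motif shares were 3.501% for FOX, 6.58% for GATA, 9.19% for AP-1, 14.4% for AP-2, 15.0% for ETS, 13.5% for TEAD, 13.8% for AGGTCA, 0.0354% for the estrogen response element and 1.41% for CTCF, as windows of this length hold more sequence. With a replicate left out they ranged from 1.77 to 2.02% for FOX, 3.47 to 3.89% for GATA, 5.41 to 5.52% for AP-1, 7.71 to 8.03% for AP-2, 7.78 to 8.03% for ETS, 6.44 to 6.90% for TEAD, 6.26 to 7.00% for AGGTCA and 0.919 to 1.06% for CTCF. Among gene lists, whose alternatives were added after the data were seen, the olfactory receptor genes had 17 open promoters within 500 bp and 9 within 100 bp (27 within 1 kb), and the liver secretory genes 9 and 6 (17 within 1 kb). Within 100 bp the keratin-associated protein genes had 8, the cytochrome P450 genes 13, the chemokine genes 4, the kallikrein genes 3 and the claudin genes 3. At the canonical TSS the blood lineage genes had 8 and the claudin genes 3, and at the stricter q the transmembrane 4 superfamily and tetraspanin genes had 4. The mean fold enrichment of VTCN1 was 143 where peaks had to overlap by 50% both ways, and that of SF3B2 was 25.5 within 500 bp of the TSS. No paired analysis was possible because the replicates form a single condition.

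The lists give no read counts over promoters without a peak, so an open promoter under the threshold of the peak caller cannot be told apart from a closed one. How reads that map to several places were handled is not given in the sources used here, so values in multigene families such as olfactory receptor and keratin-associated protein genes are uncertain. The most 5′ TSS need not be the one used in these cells, and the RNA of these cells was not analysed here. For example, it lay 24153 bp from the canonical start at EPCAM, 10903 bp at S100A11, 9926 bp at CD22 and 78917 bp at CPS1.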

Other observations

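Chromosome X was outside the class described above. Of its 237 CpG-poor protein-coding promoters, 51 had a shared region within 1 kb (21.5%, 95% Wilson interval 16.8 to 27.2%). The median fold enrichments of the 59 regions there were 14.3 and 14.4, close to the autosomal medians of 13.6 and 13.8.

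The 10 widest CpG-poor promoter regions were looked up after the widths were seen. The region at KRT7 and KRT86 was 24868 bp wide, that at ELF3 12857 bp, that at S100A16 and S100A14 10770 bp and that at KRT8 10225 bp. The others were at MAMDC4 (13183 bp), the alanine transaminase gene GPT (11294 bp), IQCN (9579 bp), RNF223 (8918 bp), MAB21L4 (8814 bp) and PTPRCAP (8476 bp). The regions held the whole of ELF3, KRT7, S100A14 and RNF223 but only a part of KRT8, KRT86 and S100A16. At KRT7 and KRT86 the region joined 4 peaks of replicate 1 and 5 of replicate 2, whereas at MAMDC4, KRT8, IQCN and the S100 pair each replicate had a single peak over the whole width.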
